A study of Mus musculus with 6 samples.

Results

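Off-island H3K9me3 peaks were narrow peaks of trimethylated lysine 9 of histone H3 that lay outside every broad domain of the same mark, away from transcript starts and outside exons. They were 27356 of the 80480 narrow peaks listed for C2C12 cells, or 34.0%. C2C12 is an established mouse myoblast line that fuses into myotubes when serum is lowered. The peaks were chosen by measured values of the H3K9me3 library itself: a MACS peak was kept when it was shorter than 2000 bp, shared no base with any of the 23268 SICER islands, and had its summit over 1 kb from annotated transcript starts and in no exon. Of all peaks, 28922 shared no base with an island. Of these, 31 were dropped as too long, 1013 as too close to a start and 522 as exonic. They are compared below with 47366 distal island peaks, which met the same limits on length, start and exon but shared a base with an island.

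Chromatin immunoprecipitation followed by sequencing was done in 6 libraries, each a group of its own. These were H3K9me3, Setdb1, Setdb1 with DMSO, Setdb1 with Wnt3a at 50 ng/ml for 24 h, and an input for each of the H3K9me3 and Setdb1 experiments. All used C2C12 cells, and gene expression was not part of these lists, so the cell type could not be checked against markers. The Setdb1 list held 1191 sites and did not name the Setdb1 library it was called from. No list named for the DMSO or Wnt3a library was analysed here. With 1 library per group, every p-value and interval below describes regions in these libraries and not cultures, and intervals are exact 95% binomial (Clopper-Pearson) intervals that cover counting error only.

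H3K9me3 is a mark of silent chromatin that is read by HP1 proteins and covers pericentromeric repeats, many transposable elements and some gene families. Setdb1 is a methyltransferase that deposits this mark, mostly outside pericentromeric chromatin, and can be brought to its targets by KRAB zinc finger proteins through the corepressor Trim28. MACS finds local summits of reads over an input, whereas SICER joins neighbouring enriched windows into domains, so a peak can be listed by MACS in a place where too few neighbouring windows were enriched for an island.

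The sequences around the summits of the off-island peaks with the strongest Setdb1 sites are shown first, because these are the peaks at which both libraries were enriched. Each run is the forward strand of mm9, 100 bp on each side of the H3K9me3 summit, under the name of its peak. Capitals mark bases covered by a run of 24 bases (a 24-mer) that is present 10 or more times in the genome, on both strands together. The peak on chromosome 4 lay 31.8 kb from the start of Jun, that on chromosome 12 lay 1.29 kb from Heatr5a, that on chromosome 5 lay 9.55 kb from Cxcl1 and that on chromosome 9 lay 3.80 kb from Smad3.
chr4:94750494-94751029: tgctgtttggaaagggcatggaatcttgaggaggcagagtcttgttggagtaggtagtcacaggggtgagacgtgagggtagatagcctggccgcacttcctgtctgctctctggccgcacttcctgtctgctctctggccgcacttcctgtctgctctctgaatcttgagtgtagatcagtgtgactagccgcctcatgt
chr12:53073386-53074133: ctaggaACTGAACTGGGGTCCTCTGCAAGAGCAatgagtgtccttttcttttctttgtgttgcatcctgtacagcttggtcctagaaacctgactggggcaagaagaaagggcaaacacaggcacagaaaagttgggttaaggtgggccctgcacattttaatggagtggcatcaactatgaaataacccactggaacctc
chr5:91310541-91310850: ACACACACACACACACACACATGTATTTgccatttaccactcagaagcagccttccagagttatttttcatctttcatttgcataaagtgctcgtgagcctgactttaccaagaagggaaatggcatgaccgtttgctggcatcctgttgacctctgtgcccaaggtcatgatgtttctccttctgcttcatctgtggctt
chr9:63609345-63609848: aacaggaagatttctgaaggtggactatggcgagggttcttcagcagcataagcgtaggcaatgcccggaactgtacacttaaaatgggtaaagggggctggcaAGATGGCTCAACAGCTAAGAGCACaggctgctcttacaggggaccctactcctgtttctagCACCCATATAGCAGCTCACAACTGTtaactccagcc

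The first of these windows held no 24-mer present 10 times, and 75 of its bases were a perfect tandem repeat with a unit of 24 bases. The other windows were also mostly unique, with 27, 28 and 49 of their 201 bases in capitals, and the one near Cxcl1 opened with a run of CA repeats. None of the 4 was CpG-rich, with between 0 and 5 CpG dinucleotides in each.

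The windows of the 4 off-island peaks with the highest H3K9me3 fold enrichment are shown for contrast, since much more of their sequence is repeated in the genome. None of these peaks held a Setdb1 site. Capitals have the same meaning.
chr13:65749108-65749294: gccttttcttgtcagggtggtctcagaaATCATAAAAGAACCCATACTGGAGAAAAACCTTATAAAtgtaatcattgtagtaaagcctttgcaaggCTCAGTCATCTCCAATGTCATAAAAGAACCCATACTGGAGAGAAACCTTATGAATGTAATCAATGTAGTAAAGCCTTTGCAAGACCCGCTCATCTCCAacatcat
chr17:8103964-8104232: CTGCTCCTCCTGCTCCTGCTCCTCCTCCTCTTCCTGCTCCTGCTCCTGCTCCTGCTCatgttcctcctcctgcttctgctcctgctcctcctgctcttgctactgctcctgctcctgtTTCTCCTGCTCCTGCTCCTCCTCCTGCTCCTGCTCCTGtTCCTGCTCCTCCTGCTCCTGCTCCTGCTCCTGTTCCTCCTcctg
chr4:146141183-146141621: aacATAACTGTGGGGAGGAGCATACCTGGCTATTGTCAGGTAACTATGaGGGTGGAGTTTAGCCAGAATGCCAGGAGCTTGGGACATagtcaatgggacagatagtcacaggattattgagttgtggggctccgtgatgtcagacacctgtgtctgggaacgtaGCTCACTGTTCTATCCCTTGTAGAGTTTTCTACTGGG
chr4:146363798-146364027: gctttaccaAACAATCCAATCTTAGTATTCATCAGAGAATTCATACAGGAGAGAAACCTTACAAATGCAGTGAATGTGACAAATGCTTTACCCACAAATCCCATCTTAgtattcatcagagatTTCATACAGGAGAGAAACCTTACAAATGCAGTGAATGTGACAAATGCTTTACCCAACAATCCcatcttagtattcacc

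Between 120 and 161 of the 201 bases were in capitals in these windows. The windows on chromosome 13 and the second on chromosome 4 each held 2 copies of the linker TGEKP, the short peptide that joins neighbouring fingers in many zinc finger proteins, when translated in all 6 reading frames. Neither of these summits lay in an annotated exon. The window on chromosome 17 was a CT-rich repeat of 61.7% GC, and the first on chromosome 4 lay in an intron of Zfp600, a zinc finger gene.

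The off-island peaks were short and shallow. Their tags, the reads counted in a peak, had a median of 15 with a range from 10 to 323, beside 21 in distal island peaks. Their fold enrichment over input had a median of 5.50 with a range from 2.36 to 13.74, beside 5.97. The median length was 361 bp beside 468 bp. Of the off-island peaks, 82.4% had 20 tags or fewer, beside 49.0% of distal island peaks. These values come from the library that chose the peaks and are therefore a description without a test.

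The strength of the calls was low in the same way. A MACS p below 1e-05 was reached by 4848 off-island peaks (17.7%), beside 38.5% of all H3K9me3 peaks and 48.9% of distal island peaks. The false discovery rate that MACS gave them had a median of 3.48% and ran from 1.09% to 5.79%, so no off-island peak reached 1%. Few other peaks did so, with 0.937% of distal island peaks and 1.04% of all H3K9me3 peaks. A rate of 5% or less was found in 82.3% of off-island peaks and 92.0% of distal island peaks. Fold enrichments of 8 or more were found in 696 off-island peaks (2.54%) and in 11.3% of distal island peaks. A fold of 10 was reached by 63 off-island peaks (0.23%), by 2.62% of distal island peaks and by 2.19% of all H3K9me3 peaks.

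**Figure D1:**
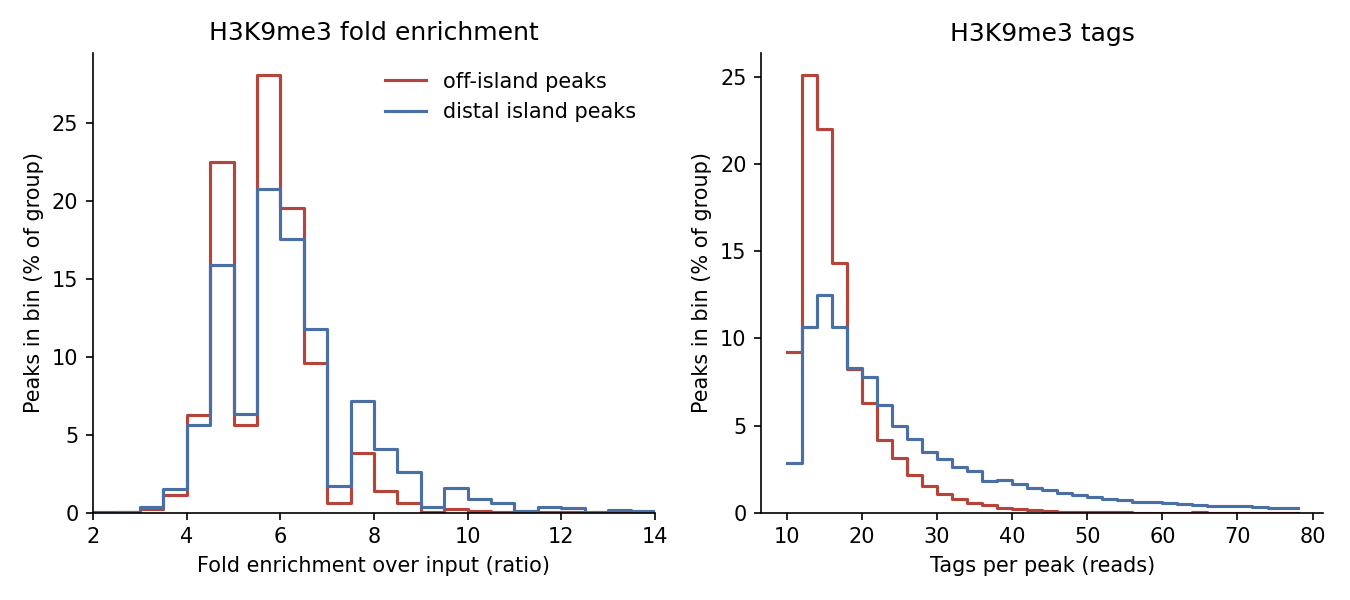
Share of peaks per bin of H3K9me3 fold enrichment over input (left, ratio) and of tags per peak (right, reads), for the 27356 off-island peaks and the 47366 distal island peaks; peaks with more than 78 tags are not drawn. The off-island peaks crowd at low tags, with a median of 15 against 21, while the fold curves overlap widely, with medians of 5.50 and 5.97.

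Many fold enrichments took the same few values. Of the off-island peaks, 78.4% had a fold within 0.012 of a whole multiple of 0.687, and 68.6% had 1 of only 4 values: 6724 peaks had 5.50, 5012 had 4.81, 4787 had 6.18 and 2243 had 6.87. This share on the steps was 68.3% in distal island peaks. By chromosome it ranged among off-island peaks from 46.9% on chromosome 15 to 90.3% on chromosome 7. A difference in fold smaller than 1 step therefore carries little information for most of these peaks.

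The peaks were far from islands and mostly from each other. The gap to the nearest island had a median of 38.4 kb and ran from 1023 bp to 2.10 Mb. It was over 10 kb in 78.1% of the peaks, over 100 kb in 7355 (26.9%) and over 1 Mb in 107. The nearest other H3K9me3 summit was a median of 14 kb away, beside 1.25 kb for distal island peaks. Even so, 22.9% had another summit within 5 kb (81.5% of distal island peaks), so not every off-island peak stood alone. Islands join neighbouring enriched windows of the same library, so the closer spacing of distal island peaks is largely set by the rule. These distances are a description. The peaks with no other summit within 50 kb numbered 4089, and 14 of these held a Setdb1 site (0.342%, 0.187 to 0.574), close to the 0.355% of all off-island peaks given below.

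Peaks just inside and just outside the limits of the rule were set side by side, without a test. The 80 peaks with a summit 1000 to 1100 bp from a start had a median of 17 tags and a fold of 5.50, and the 80 peaks outside islands that the rule dropped at 900 to 1000 bp had 16 tags and 5.50. The 468 peaks within 1500 bp of an island had a median of 15 tags and a fold of 5.50. The 3185 distal island peaks that extended past an island edge had 21 tags and 6.18. A Setdb1 site was found at 1 of the 468 (0.214%, 0.00541 to 1.18) and at 68 of the 3185 (2.14%, 1.66 to 2.70), whose median lengths were 360 bp and 462 bp. The 10 off-island peaks of 1500 bp or more had a median of 138 tags and a fold of 3.98, far above the 15 tags of off-island peaks as a whole. The 29 distal peaks of 2000 bp or more outside islands had 357 tags and 4.02.

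The off-island peaks were spread much more evenly over the genome than the peaks in islands. Their density was 10.7 per Mb over all 20 chromosomes, and ranged 1.75-fold, from 7.56 per Mb on chromosome 7 to 13.2 per Mb on chromosome 13. Distal island peaks ranged 8.95-fold, from 4.96 per Mb on chromosome X to 44.4 per Mb on chromosome 15. Of the 2649 bins of 1 Mb, 2540 held an off-island peak, with a median of 10 and a maximum of 35 on chromosome 3 between 139 and 140 Mb.

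The share of peaks on a chromosome differed between the groups for 19 of 20 chromosomes (Fisher's exact test, two-sided, Benjamini-Hochberg over the chromosomes), being higher among off-island peaks on 12 and lower on 7. Chromosome 13 did not pass (exact adjusted p = 0.0747). The X chromosome held 1626 off-island peaks at 10.0 per Mb, slightly below the 10.7 of all chromosomes, and few distal island peaks at 4.96 per Mb. It held 5.94% of the former against 1.70% of distal island peaks (odds ratio 3.66, exact adjusted p = 8.25e-207). Chromosomes 3 and 16 were the next in that direction, with odds ratios of 1.91 and 1.86. Chromosome 15 was lowest, with 3.85% against 9.42% (odds ratio 0.385, exact adjusted p = 9.27e-189), followed by chromosome 2 with 6.61% against 13.0% (odds ratio 0.471). Shares within a group add to a whole, so a chromosome dense in islands lowers the share of the others among distal island peaks.

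**Figure D2:**
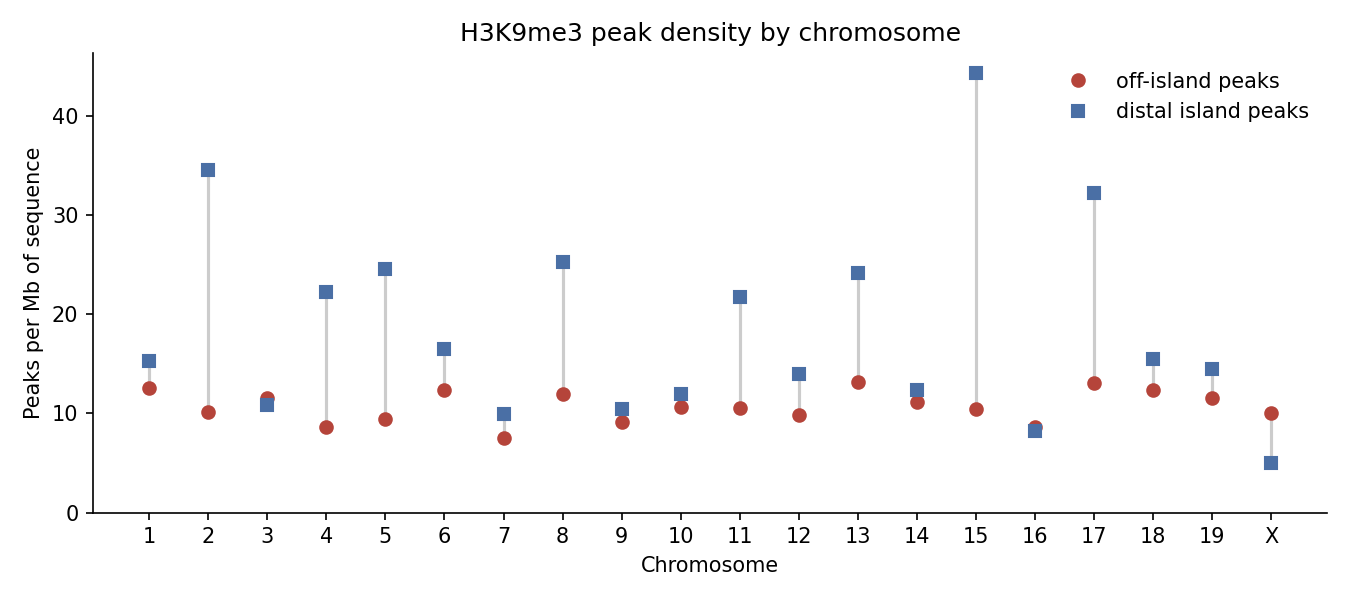
Off-island peaks (circles) and distal island peaks (squares) per Mb of sequenced bases on each chromosome, 1 library. Circles lie between 7.56 and 13.2 per Mb, squares between 4.96 and 44.4, and the circle lies above the square on chromosomes 3, 16 and X.

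Setdb1 was found at few off-island peaks. A Setdb1 site shared a base with 97 of them, or 0.355% (0.288 to 0.432), beside 0.998% of all H3K9me3 peaks and 527 of the distal island peaks, or 1.11% (1.02 to 1.21). The odds ratio was 0.316 (0.255 to 0.393; Fisher's exact test, two-sided, p = 4.21e-31 adjusted over 6 tests). This difference was not found between peaks of like length: pooled over 5 classes of length the odds ratio was 0.916 and p = 0.465 (Mantel-Haenszel chi-square test on counts of peaks). Pooled over 5 classes of fold enrichment it was 0.523 (p = 3.20e-08, same chi-square test). Peaks with tied folds at a class limit were divided unevenly, as off-island peaks fell mainly in the lower class. That pooled ratio is therefore not between peaks of like fold. With the Setdb1 summit required inside the peak in place of a shared base, the ratio without classes was 0.305 (p = 1.35e-28, exact test). The part of peak length in the result was not tested beyond these values.

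By length, the Setdb1 share of off-island peaks was 0.126% in the shortest class (up to 326 bp) and 2.38% (1.62 to 3.37) in the longest (over 621 bp). The distal island peaks had 0.129% and 3.03% (2.75 to 3.34) in the same classes. In the highest class of fold the values were further apart, with 1.12% (0.705 to 1.69) of off-island peaks and 2.70% (2.42 to 2.99) of distal island peaks. Peaks tied at the lower limit of this class, 6.87, were mainly distal island peaks, so the 2 groups were not of like fold.

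**Figure D3:**
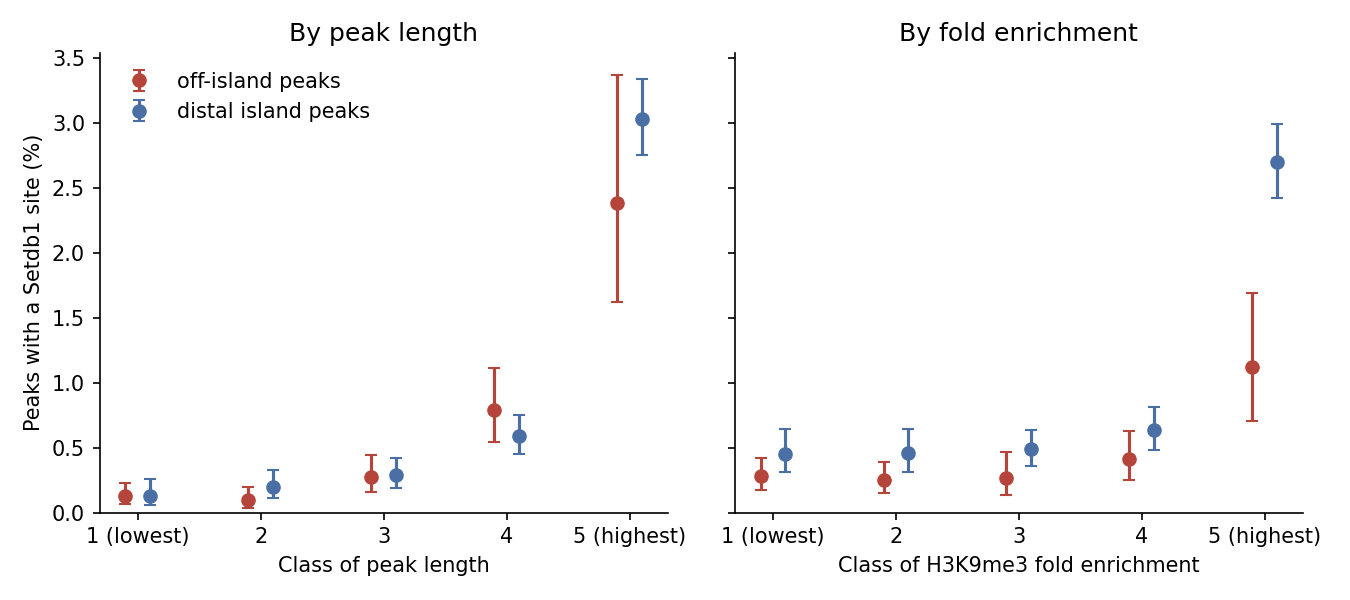
Percentage of peaks with a Setdb1 site in 5 equal classes of peak length (left) and of H3K9me3 fold enrichment (right), for off-island and distal island peaks; bars are exact 95% binomial intervals, which cover counting error only. The intervals overlap in every length class, and in the highest fold class they do not (1.12% against 2.70%). Tied folds at a class limit were divided unevenly between the groups, so the fold classes do not compare peaks of like fold.

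Within the off-island peaks, the Setdb1 share was 35 of 5471 (0.640%) in the highest of 5 classes by H3K9me3 fold and 20 of 5471 (0.366%) in the lowest. This difference did not pass the test (odds ratio 1.75, 1.01 to 3.04; two-sided Fisher's exact test, adjusted p = 0.0689), and many peaks with tied folds were split between classes by position. It was 0.110% in the middle class, which held only peaks of fold 5.50. Peaks of that fold also lay in the classes on both sides, so the course of the share between the lowest and highest class is not resolved. With classes of the MACS score, which is minus 10 times the log10 of p, 55 peaks (1.01%) had a site in the highest class and 1 (0.0183%) in the lowest (odds ratio 55.5, p = 1.39e-15, Fisher's exact test, two-sided). Peak length rose with it, from a median of 316 bp to 498 bp.

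The Setdb1 sites over off-island peaks had nearly the same median enrichment as those over distal island peaks. The 95 sites had Setdb1 fold enrichments from 4.54 to 14.45 with a median of 7.32, beside a median of 7.40 for the 496 sites over distal island peaks. Medians of Setdb1 tags were 31 and 33. A fold above 7.32, the median of the whole Setdb1 list, was found in 46 of 95 sites (48.4%) and in 285 of 496 (57.5%), which did not differ past the threshold (odds ratio 0.695, 0.448 to 1.08; two-sided Fisher's exact test, adjusted p = 0.115). The interval of the ratio includes equal shares.

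The 97 off-island peaks with Setdb1 were deeper and longer than those without. They had 11 to 48 tags with a median of 26, against a median of 15 without Setdb1. Their H3K9me3 fold was 2.78 to 11.68 with a median of 6.03, against 5.50, and 9 of them reached 8. Their median length was 536 bp against 361 bp. They lay a median of 37.2 kb from an island, close to the 38.4 kb of all off-island peaks. The Setdb1 and H3K9me3 summits were a median of 115 bp apart, and within 100 bp in 44.3% of pairs (34.2 to 54.8), against 181 bp and 34.3% (30.3 to 38.6) in distal island peaks. These intervals overlap. A pair only has to share a base, so longer peaks allow larger distances. Of the peaks with Setdb1, 31 of 97 off-island and 414 of 527 distal island peaks were in the longest class. The distances were not compared at like length.

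The 10 off-island peaks with the highest Setdb1 fold are described with their nearest protein-coding start or host gene. The highest Setdb1 fold, 14.45 with 36 Setdb1 tags, was at chr4:94750494-94751029, where H3K9me3 had 29 tags and a fold of 8.48. Jun, the nearest protein-coding start, encodes a subunit of the AP-1 transcription factor. Next were the peak near Heatr5a with a Setdb1 fold of 12.96 on an H3K9me3 fold of 5.50, and that near Cxcl1, a chemokine gene, with 12.96 on 5.22. The peak near Smad3, a transducer of TGF-beta signals, had 12.75 on 7.93.

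An intron of Atxn1 held a site of 12.08 at chr13:46027248-46027911, where H3K9me3 was only 3.37-fold. An intron of Kif16b, a kinesin gene, held a site of 12.01 on 7.24 at chr2:142606364-142607399. The others of the first 10 were nearest to Tmem40 (11.41 on 4.49), Fam73b (10.79 on 5.65), Chd7, a chromatin remodeller (10.74 on 7.56), and Smad7, an inhibitor of TGF-beta signalling (10.55 on 4.75). Nearness to a start does not show which gene, if any, a site acts on.

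**Figure D4:**
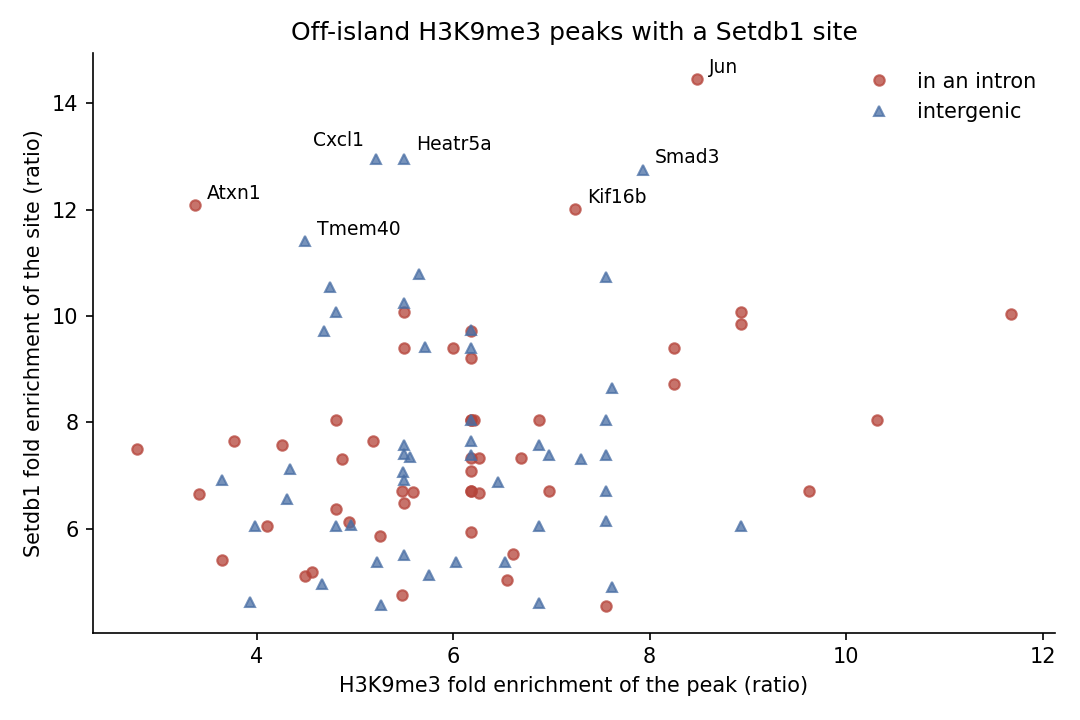
H3K9me3 fold enrichment of the peak (x axis) against Setdb1 fold enrichment of the site (y axis) for the 97 pairs of an off-island peak and a Setdb1 site, by intron or intergenic position; the 7 sites of highest Setdb1 fold carry the nearest protein-coding gene. The strongest Setdb1 sites, at 11.41 to 14.45, lie over peaks of H3K9me3 fold 3.37 to 8.48 and not over the peaks of highest H3K9me3 fold.

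Most off-island peaks were intergenic. Introns held 8347 of them (30.5%, 30.0 to 31.1) and 39.3% of distal island peaks (odds ratio 0.677, two-sided Fisher's exact test, adjusted p = 1.06e-129). Among off-island peaks with Setdb1 the intronic share was 49 of 97 (50.5%, 40.2 to 60.8), beside 30.4% without Setdb1. Seen the other way, 0.587% (0.435 to 0.775) of intronic and 0.253% (0.186 to 0.335) of intergenic off-island peaks held a site, and these intervals do not overlap. The Setdb1 peaks were spread over 19 of the 20 chromosomes. Chromosome 5 held 12 of them among its 1392 off-island peaks, and chromosome 12 held 11 among 1152. Chromosome 1, with the most off-island peaks, held 4 among 2415. Over all chromosomes, 97 of 27356 off-island peaks (0.355%) held a site. Whether this share differs between chromosomes was not tested. None of the 1626 peaks on the X held a site, which allows a share of up to 0.227%.

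Off-island peaks held CpG-rich sequence less often than distal island peaks. A window of 501 bp around the summit with over 50% GC and an observed to expected CpG ratio above 0.6 was found in 80 of them (0.292%) and in 281 distal island peaks (0.593%; odds ratio 0.491, adjusted p = 5.38e-09, Fisher's exact test, two-sided). Of all genome windows of that length, 0.717% were CpG-rich. Those windows were not filtered for starts and exons as the peaks were, so this share is no like reference. No off-island peak with Setdb1 was CpG-rich, which for 97 peaks allows a share of up to 3.73%. The median GC content was 43.7% in off-island peaks and 45.7% in distal island peaks, beside 41.5% over the genome.

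Repeated sequence was more common in off-island peaks. At least 20% of the 24-mers of the window were present 10 or more times in the genome in 4136 of them (15.1%, 14.7 to 15.5) and in 4505 distal island peaks (9.51%, 9.25 to 9.78; odds ratio 1.69, adjusted p = 3.22e-114, Fisher's exact test, two-sided). Both lay below the 21.9% of 51101 genome windows placed every 50 kb. Only reads that aligned uniquely were kept by the authors, so the most repeated sequence was largely out of reach. Off-island peaks with Setdb1 had 8 of 97 such windows (8.25%, 3.63 to 15.6).

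Off-island peaks of high H3K9me3 fold were richer in repeated sequence than the rest. Of the 63 with a fold of 10 or more, 28 (44.4%, 31.9 to 57.5) had a repeated window. The same share was not taken for distal island peaks of that fold, so it is not known to be particular to off-island peaks. In 19 of the 63 (30.2%) the median 24-mer had 2 to 9 copies, beside 4.97% of all off-island peaks and 5.66% of genome windows. Of the 63, 50 were alone in their bin of 1 Mb and 13 shared one. The fullest bins held 3 each: 3 lay between 85 and 86 Mb of chromosome 1, 3 between 66 and 67 Mb of chromosome 13, and 3 between 146 and 147 Mb of chromosome 4.

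The 10 highest folds were held by peaks of 20 to 33 tags and 187 to 439 bp. The first was 13.74 with 20 tags at chr13:65749108-65749294, in intergenic sequence 56.7 kb from the nearest start, and the second was 13.74 with 23 tags at chr17:8103964-8104232, 14.8 kb from Tagap. Others lay in introns of Zfp600 (13.46), of C130026I21Rik (13.06), of Apba1, an adaptor of neuronal vesicle release (12.37), and of Slpi, a protease inhibitor gene (12.37). None of the 10 had a Setdb1 site.

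A linker TGEKP, searched in all 6 reading frames of the 501 bp window after the sequences above had been seen, was found in 28 off-island peaks (0.102%, 0.068 to 0.148), in 81 distal island peaks (0.171%, 0.136 to 0.213) and in 0.0783% (0.0559 to 0.107) of the genome windows. Peaks of both groups had no summit in an exon, whereas the genome windows were not filtered for exons, so the genome share is no like reference. Of the 28 peaks, 9 lay on chromosome 13, which held 5.63% of all off-island peaks. The richest window had 6 linkers. A Setdb1 site was found at 0 of 28, which allows a share of up to 12.3%.

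The 6 commonest words of 24 bases were taken from the off-island windows alone, each from windows that held none of the words before. That choice favours a higher share in off-island peaks than elsewhere, so the shares below are a description. Among these words, 1 stood out from the genome more than the others. It was present in 139 off-island peaks (0.508%), 129 distal island peaks (0.272%) and 50 genome windows (0.0978%), and 5058 times in the whole genome. The CA repeat, the commonest word, was in 882 off-island peaks (3.22%), below the 4.19% of genome windows. The 139 peaks were on all 20 chromosomes, and 119 of them lay between genes, beside 19009 of all 27356 off-island peaks. Their median fold was 6.18 and the highest was 10.31. A p below 1e-05 was reached by 58 of the 139, beside 17.7% of all off-island peaks. A Setdb1 site was found at 0 of 139, which allows a share of up to 2.62% and so does not set them apart from the 0.355% of all off-island peaks. No repeat annotation was used, so the word is not assigned to a repeat family. It read as follows, with capitals marking the whole word.
Shared word: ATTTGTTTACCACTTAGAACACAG

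Of 3 short motifs searched, that of AP-1 differed most between off-island peaks with and without Setdb1. TGACTCA was found on either strand of the 501 bp window in 21 of 97 off-island peaks with Setdb1 (21.6%, 13.9 to 31.2) and in 9.26% (8.92 to 9.61) of those without. In distal island peaks with Setdb1 it was found in 19% (15.7 to 22.6), beside 9.74% of all distal island peaks and 7.69% of genome windows. The peaks with Jun (31.8 kb), Cxcl1 (9.55 kb) and Chd7 (77.2 kb) as nearest protein-coding start were among the 21. Closer to the peak of Jun lay the start of 4930551L18Rik (7.35 kb), and to that of Chd7 the start of Rps18-ps2 (23.8 kb). Read from the motif, 0.825% (0.511 to 1.26) of off-island peaks with TGACTCA and 0.306% (0.241 to 0.383) of those without it held a Setdb1 site. These shares have no test, and a match of letters is not a bound factor.

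The other motifs were closer between groups. CAGCTG, an E-box bound by myogenic factors such as MyoD, was found in 23.7% (15.7 to 33.4) of off-island peaks with Setdb1, 20.3% of all off-island peaks, 22.8% of distal island peaks and 17.0% of genome windows. TGCCGC, the core bound when methylated by Zfp57, a KRAB zinc finger protein of imprinted loci, was found in 5.15% (1.69 to 11.6), 3.53%, 4.56% and 2.98%.

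**Figure D5:**
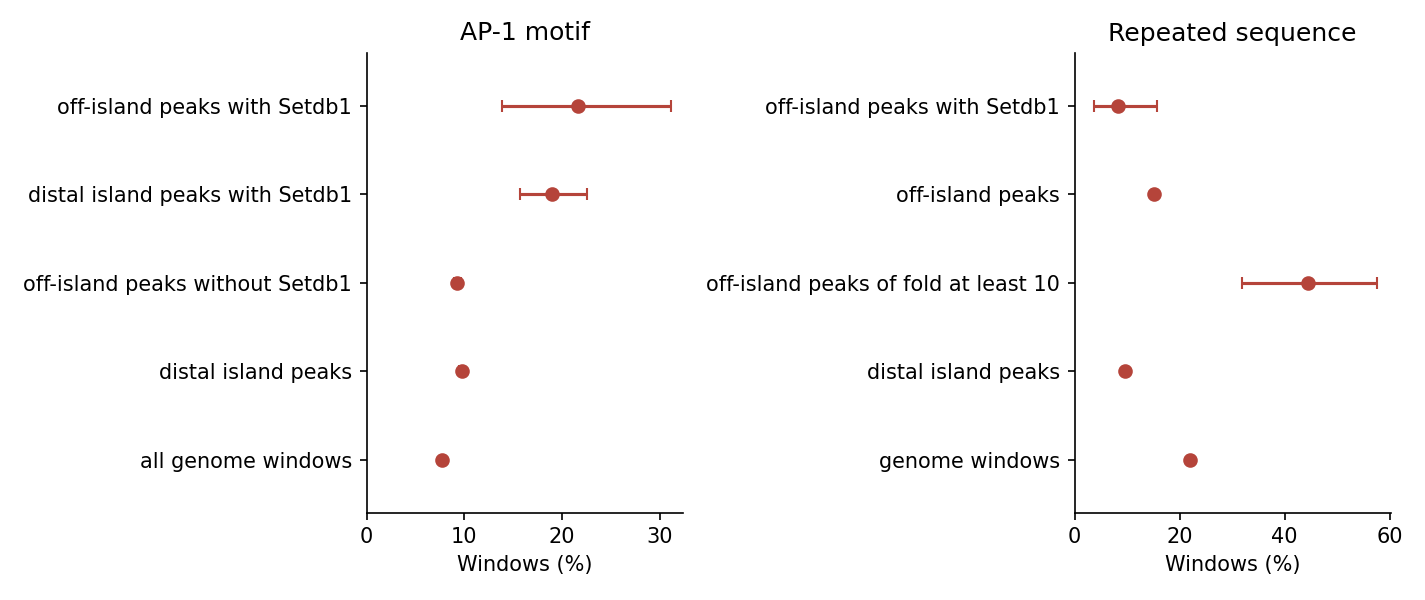
Percentage of 501 bp windows with the AP-1 motif (left) and with repeated sequence (right; at least 20% of 24-mers in 10 or more genome copies), with exact 95% binomial intervals. The motif is at 21.6% and 19% in peaks with Setdb1 against 7.69% to 9.74% elsewhere, and repeated sequence is at 44.4% in off-island peaks of fold 10 or more.

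The 6 off-island peaks with most tags were unlike the rest. All lay on chromosome 15 between 54 and 64 Mb and were long. The first, in an intron of Deptor, an inhibitor of mTOR signalling, was 1881 bp long with 323 tags and a fold of 3.62. A second peak in Deptor had 162 tags and a fold of 2.36, the lowest fold of all. Introns of Mal2 held 198 tags (3.62-fold) and of Sntb1, a syntrophin of the dystrophin complex, 164 tags (3.42-fold). The other 2 were intergenic, with 149 tags (6.62-fold) and 147 tags (4.49-fold). Together this stretch held 82 off-island peaks with a median of 19.5 tags and a fold of 5.0, and the remaining 972 on chromosome 15 had 16 tags and 5.50. A Setdb1 site was found at 0 of the 82, which allows a share of up to 4.40%, and at 5 of the 972 (0.514%, 0.167 to 1.20), so no difference was detectable.

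The genes with the most intronic peaks were large. An off-island peak lay in an intron of 3522 of 22350 protein-coding genes (15.8%). The most were in Macrod2 with 43, Csmd1 with 39, Cntnap2 with 32, Ctnna3 with 31, Gm20388 with 31, Gpc5 with 27, Fgfr2 with 26 and Auts2 with 26. Dmd, the dystrophin gene, also had 26. The annotation draws Gm20388 over 4435 kb and Fgfr2 over 3009 kb, so these peaks span wide annotated bodies. Density rose with gene length, from 2.25 peaks per Mb of gene body in genes under 10 kb to 5.28 at 10 to 50 kb, 7.33 at 50 to 200 kb, 8.93 at 200 to 500 kb and 11.1 above 500 kb, close to the 10.7 per Mb of the genome. The density was taken over whole gene bodies, although the rule leaves out starts and exons, and the part of this in the result was not tested.

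The gene lists differed widely in gene length. Of 48 annotated genes for neuronal adhesion and synapses, which act mainly in neurons, 45 had an off-island peak (93.8%, beside 15.8% of protein-coding genes), led by Csmd1, Cntnap2 and Fgf14 (23). These genes were long, with a median of 879 kb. Of all protein-coding genes above 500 kb, 99.0% had a peak, and of those of 200 to 500 kb, 82.5% had one. The 38 neuronal genes above 500 kb had 12 peaks per Mb, beside 11.1 for all genes of that length, and the 6 of 200 to 500 kb had 17.3, beside 8.93. The shorter neuronal genes lay below their background. The 2 of 50 to 200 kb had 5.05, beside 7.33, the 2 of 10 to 50 kb had 0, beside 5.28, and the 3 under 10 kb had 0, beside 2.25. These length classes together count more entries than the 48 genes. Of 19 classical cadherins, with a median length of 152 kb, 11 had a peak (57.9%), with 9 in Cdh12.

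Of 49 myogenic and contractile genes, 16 had a peak (32.7%, beside 15.8% of protein-coding genes). Dmd had 26 with a highest fold of 7.56, Sgcd, a sarcoglycan gene, had 12, and Nebl, a nebulin relative of cardiac muscle, had 5. Of 65 Wnt pathway genes, 20 had a peak (30.8%). The most were in the Wnt receptors Ror2 (6) and Ror1 (4) and in Rnf43 (3), which encodes a ligase that removes Wnt receptors. Of 33 genes of the H3K9 methylation machinery, 4 had a peak (12.1%). They included Mecom (3), Kdm4c (1), a demethylase, and Suv39h1 (1), a methyltransferase. Peaks per Mb of gene body were 8.84, 10.0 and 2.33 in these 3 lists, beside 7.74 over all protein-coding genes. Their median gene lengths were 24.5, 31.7 and 43.9 kb, beside 15.4 kb, so the shares of genes with a peak are not at like length.

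Of 33 imprinted genes, 6 had a peak (18.2%, beside 15.8% of protein-coding genes), with 5 in Kcnq1 and 2 each in Commd1 and Rasgrf1. Of 367 zinc finger genes 50 had a peak (13.6%), led by Zfp385b with 10, and of 1440 olfactory and vomeronasal receptor genes, which are very short, 19 had one (1.32%). Peaks per Mb of gene body were 7.87, 8.94 and 3.92 in these lists, beside 7.74 over all protein-coding genes, so the imprinted and zinc finger genes lay near the background. No off-island peak within a gene of these 8 lists held a Setdb1 site. Over all protein-coding genes, 47 of 7860 pairs of an intronic peak and its gene had one, a peak in overlapping genes being counted for each.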

How the data were processed

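Setdb1 and H3K9me3 were immunoprecipitated from C2C12 cells and sequenced by the authors. Reads were aligned to mm9 with Bowtie 0.12.7, and unique reads without duplicates were kept, so identical repeats are under-represented. H3K9me3 peaks were called over input by MACS 1.4 (p limit 1e-03, no model, shift size 50) and islands by SICER (window 200 bp, gap 1000 bp), with 1 library per group in the labels. The tag counts deposited by the authors are whole reads in a peak and are not scaled. The deposited fold enrichment is a ratio to the MACS background, the deposited score is minus 10 times the log10 of p, and the deposited false discovery rate is in percent. The Setdb1 list had been filtered by the authors at p below 1e-05, a false discovery rate of 1% and a 4-fold ratio. Total reads per library are not analysed here.

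MACS positions were read as counted from 1 and SICER starts from 0. Starts, exons, introns and sequences came from NCBIM37 with GENCODE vM1, whose chromosomes match mm9. Copies of 24-mers were counted over the genome on both strands. Overlap was at least 1 bp. Counts were compared by Fisher's exact test, two-sided, with Benjamini-Hochberg adjustment over 6 tests, and over the 20 chromosomes apart. Intervals of odds ratios are 95% Woolf intervals. Functions were tested on simulated data. Named were the 10 off-island peaks of highest Setdb1 fold and of highest H3K9me3 fold, the 6 with most tags, their nearest or host genes, the 8 genes with most peaks, and up to 3 genes per list. Dmd among the genes with most peaks, the edges, the linker, the shared word and the AP-1 split were chosen after their values were seen. The members and all lists were chosen with earlier results of these data known. Alternatives changed the strength of peaks and sites, the overlap, the island distance and start, the pooling over classes, and the sequence and annotation definitions. Python 3.11.15, NumPy 2.4.6, SciPy 1.17.1, pandas 2.3.3, Numba 0.67.0 and Matplotlib 3.10.9 were used.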

Additional observations from a re-analysis of the deposited data

How the results depend on the processing

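Of 30 alternatives run, 10 moved no peak between the groups and bear on nothing: a limit of 1 kb from islands could remove none, as the smallest gap was 1023 bp, and SICER starts counted from 1 changed 0 peaks. Of the other 20, 16 kept the direction and the side of the threshold. The Setdb1 share lost its call when pooled over 5 classes of length (odds ratio 0.916, p = 0.465, Mantel-Haenszel chi-square test), and off-island peaks were the shorter group. The comparison of the highest with the lowest fold class passed an unadjusted 0.05 with 4 classes in place of 5 (odds ratio 1.96, p = 0.0123), with classes by score (55.5, p = 1.39e-15) and with the Setdb1 summit inside the peak (1.89, p = 0.0439), by Fisher's exact test. The cause was not tested. A limit of 1% on the false discovery rate gave no value, because no off-island peak remained, against 444 distal island peaks (0.937%). With p below 1e-05 the chromosomes that differed numbered 18 in place of 19. No paired analysis was possible because there is only 1 library in each group. Most peaks rest on 20 tags or fewer, which limits the precision of each fold, and the spread between cultures is unknown.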
